A study of Mus musculus with 12 samples.

Results

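Trp53, the mouse gene for p53, and 9 of its direct target genes were followed across 12 RNA sequencing libraries of mouse prostate. The 10 genes were taken by name: Trp53, Mdm2, Ccng1, Perp, Phlda3, Trp53inp1, Bax, Sesn2, Zmat3 and Eda2r. They are 10 of 24421 genes in the deposited values, and all 10 averaged at least 0.5 FPKM over the libraries and so were among the 13375 genes tested. FPKM is the number of fragments scaled by transcript length and library total, so it is a level per length.

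The tumor library came from a TRAMP mouse of 24 weeks on control diet, and the lobe it grew in is unknown. TRAMP prostates gave 2 libraries each for PEITC diet at 24 weeks, control diet at 24 weeks, PEITC diet at 16 weeks and control diet at 16 weeks. Wild type C57BL/6 prostates on control diet gave 2 libraries at 24 weeks and 1 at 16 weeks. All TRAMP mice were of the strain C57BL/6-Tg(TRAMP)8247Ng/J, in which the rat probasin promoter drives the SV40 early region, with large T antigen, in prostate epithelium. The control diet was AIN93M, and the PEITC diet held 0.05% (w/w) phenethyl isothiocyanate, a compound of cruciferous vegetables. The 11 prostate libraries were made from ventral and dorsolateral lobes, so they are mixtures of epithelium, stroma and other cells. Whether a library is 1 animal or a pool is not stated, so p-values measure the spread between these libraries, which may be technical. The transcript of the transgene was not analysed here.

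The protein p53 is a transcription factor that is kept low by Mdm2, a ubiquitin ligase whose own gene p53 activates. When DNA damage or an oncogene frees p53 from Mdm2, it binds paired copies of a short DNA element and activates genes for cell cycle arrest, apoptosis, antioxidant defence and DNA repair. SV40 large T antigen binds p53 and holds it in a stable complex that can no longer activate these genes normally, and it also binds the retinoblastoma protein.

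The promoter sequence was searched for the p53 half-site consensus, a 10-base element of which the full binding site holds 2 copies. RefSeq start-site windows of the GRCm38.p6 build, from 250 bases before to 50 bases after the start, were at hand for 7 of the 10 genes. The consensus was found on either strand in 4 of these 7 windows (57.1%), against 2582 of 27025 windows of all genes (9.55%) and 13 of 53 windows of other genes of the pathway (24.5%). The 4 matches, in Trp53, Mdm2, Ccng1 and Bax, are shown. A match from the window of Cdkn1a, the best known arrest target, is shown for comparison. Each sequence runs 5′ to 3′ on the strand of its gene, with the match in capitals and 10 bases on each side.
Trp53: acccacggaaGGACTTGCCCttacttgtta
Mdm2: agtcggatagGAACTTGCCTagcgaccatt
Ccng1: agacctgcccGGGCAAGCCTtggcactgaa
Bax: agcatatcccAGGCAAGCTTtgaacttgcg
Cdkn1a: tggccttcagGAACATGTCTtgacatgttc
The Trp53 sequence lies at chr11:69580274-69580303 on the plus strand, and its match begins 75 bases before the start site. Those of Mdm2 (chr10:117710925-117710954), Ccng1 (chr11:40755452-40755481) and Bax (chr7:45467080-45467109) lie on the minus strand, with the match 186, 185 and 201 bases before the start site. The Cdkn1a sequence lies at chr17:29090918-29090947 on the plus strand, with the nearer of the 2 matches in its window 51 bases before the start. A match is a run of letters and does not show that p53 binds there. The windows of the other 3 genes, Phlda3, Sesn2 and Eda2r, held no match, which says only that these letters are not in that window.

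Libraries differed beyond their labels in several ways. Relative depth was estimated from the most common ratio to 1 reference library among genes with nonzero values under 0.2 FPKM in both. It was 0.7 in the tumor, 0.667 to 1 in TRAMP prostates and 0.635 to 0.695 in wild type. The wild type library of 16 weeks held seminal vesicle transcripts, with a summed level of 7816 FPKM over 7 marker genes, against 4.83 to 8.02 FPKM in the 24-week wild type libraries. The same library had 90.8 FPKM over 6 skeletal muscle markers, against 32.6 to 34.4 FPKM in the 24-week wild type libraries. Tgm4, a prostate secretory gene, stood at 468.1 FPKM in it and averaged 16.0 FPKM in wild type of 24 weeks. Replicate 1 of TRAMP PEITC at 24 weeks held neuroendocrine transcripts, with 34.6 FPKM over 6 markers against 1.09 to 2.60 FPKM in the other TRAMP prostates. The luminal keratin Krt8 stood at 614.5 FPKM in the tumor, 346.0 to 407.6 FPKM in TRAMP prostates and 366.4 to 418.2 FPKM in wild type, so epithelium was present in all libraries. The proliferation marker Mki67 averaged 14.3 FPKM in TRAMP and 1.21 FPKM in wild type prostates of 24 weeks (n = 2 each).

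**Figure D1:**
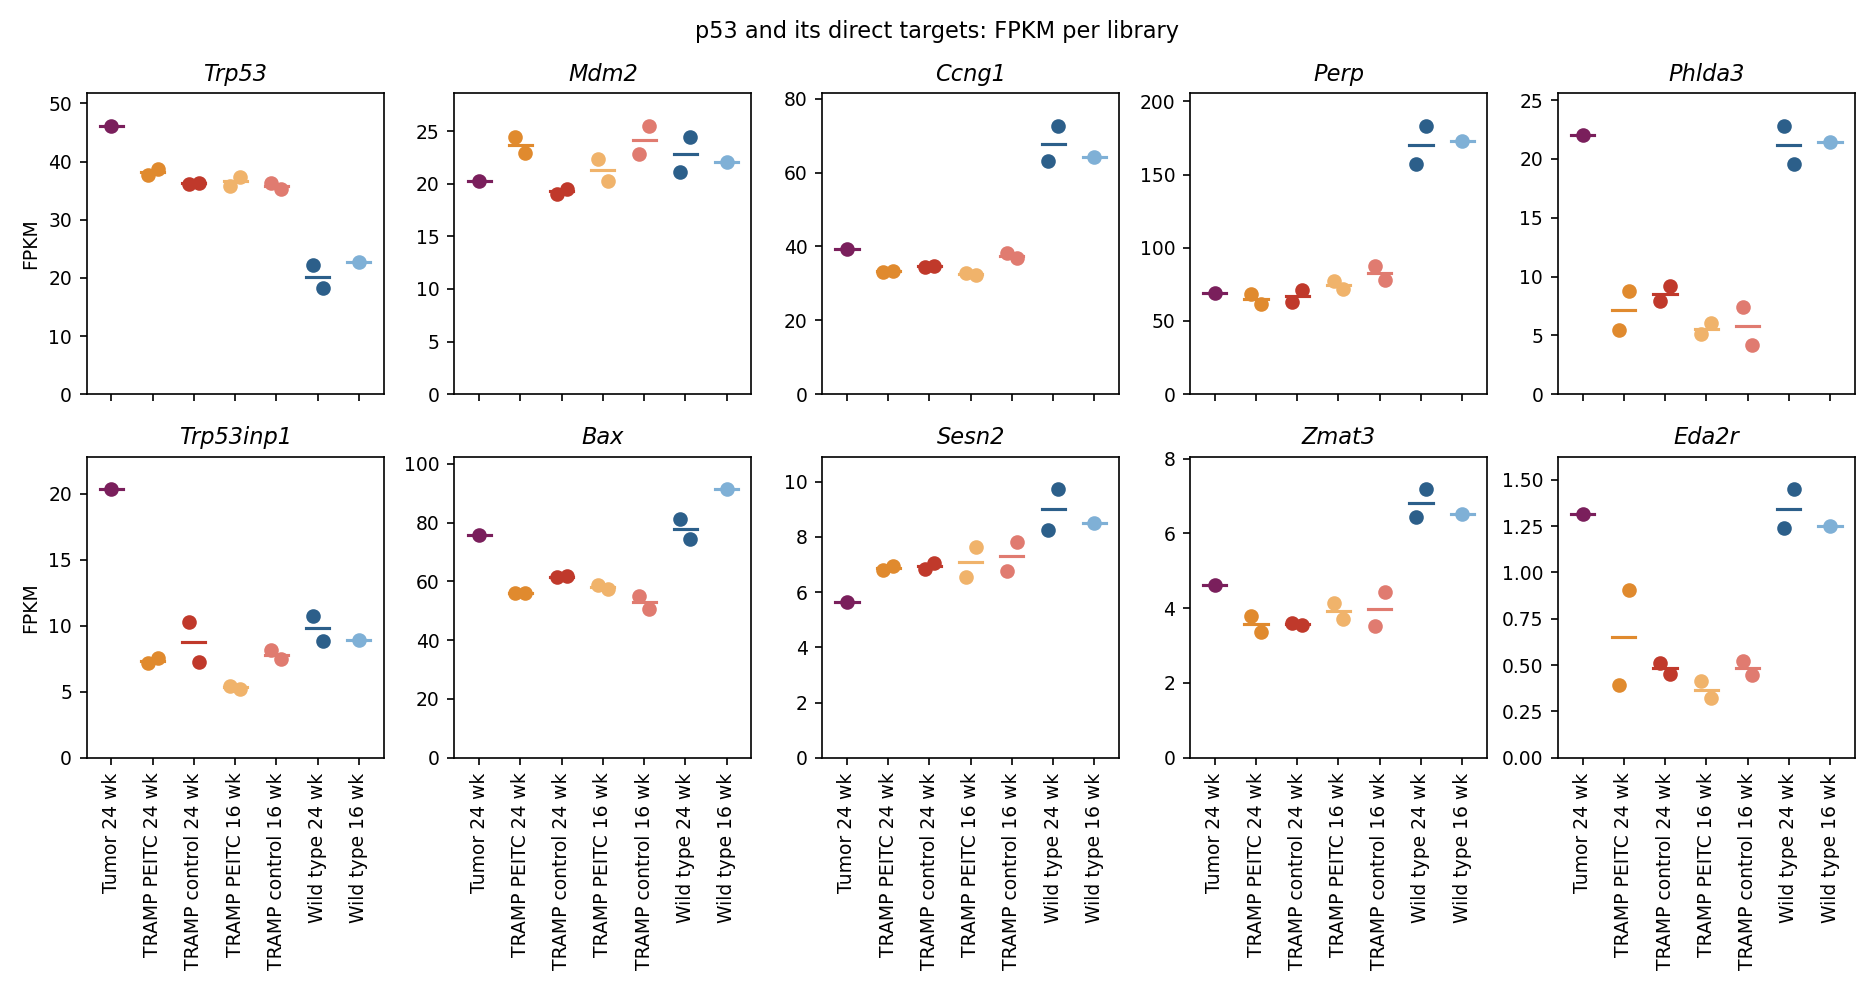
FPKM of the 10 genes in the 12 libraries, 1 panel per gene, with a dot for each library and a bar at the mean of the group. In the Trp53 panel the wild type dots sit at 18.2 to 22.8 FPKM, under all TRAMP prostates at 35.4 to 38.8 FPKM and the tumor at 46.2 FPKM, and in the Ccng1, Perp and Zmat3 panels the wild type dots are the highest.

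The comparison of TRAMP with wild type prostates asks what the p53 genes do where large T antigen is expressed. Trp53 mRNA was higher in TRAMP prostates, and 7 of its 9 targets were lower at 24 weeks. The other 2 targets, Mdm2 and Trp53inp1, did not pass the test at either age. Fold changes are log2 differences of FPKM + 1, which understate the change of genes with low values, and a gene was called at an adjusted p under 0.05 in limma. In all, 8 of the 10 genes were called at 24 weeks, against 45% of all tested genes, with 1 higher (background 23%) and 7 lower (background 22%). Their median log2 fold change was -0.49, while that of all tested genes was 0.00. Of all genes called at 24 weeks 51.1% were higher, and 66.6% were when libraries were rescaled without their 50 most abundant genes; Trp53 stayed higher and the 7 targets lower under that scaling, which kept 7 of the 8 calls and lost that of Sesn2.

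Trp53 (chromosome 11, 69580359 to 69591873, GRCm38) encodes p53 itself. Its level was 36.1 and 36.4 FPKM in TRAMP libraries and 22.2 and 18.2 FPKM in wild type libraries of 24 weeks. Both TRAMP libraries lay above both wild type libraries, and the log2 fold change was 0.82 (SE 0.08, adjusted p = 0.000208). At 16 weeks Trp53 stood at 36.3 and 35.4 FPKM in TRAMP prostates and 22.8 FPKM in the wild type library (log2 fold change 0.63, SE 0.10, adjusted p = 0.00298). The 8 TRAMP prostates of both diets and ages spanned only 35.4 to 38.8 FPKM, all above the 3 wild type libraries. Mdm2 (chromosome 10, 117688875 to 117710758), the negative regulator and target of p53, showed no such gap. It had 19.0 and 19.5 FPKM in TRAMP and 21.1 and 24.4 FPKM in wild type prostates of 24 weeks (log2 fold change -0.23, SE 0.09, adjusted p = 0.0725). At 16 weeks the Mdm2 values were 22.8 and 25.5 FPKM in TRAMP and 22.1 FPKM in wild type prostates (0.12, adjusted p = 0.42), so the direction differed between the ages. The Mdm2 call at 24 weeks was gained with quantile normalization (adjusted p = 0.0368) and without wild type replicate 0 (adjusted p = 0.0362).

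Ccng1 (chromosome 11, 40748552 to 40755311) encodes cyclin G1, which acts in feedback on p53 through Mdm2. It had 34.5 and 34.6 FPKM in TRAMP libraries and 63.0 and 72.7 FPKM in wild type libraries of 24 weeks. The log2 fold change was -0.95 (SE 0.07, adjusted p = 4.29e-05). At 16 weeks Ccng1 stood at 38.1 and 36.8 FPKM in TRAMP prostates against 64.2 FPKM in wild type (-0.76, adjusted p = 0.000584). The lowest wild type library, at 63.0 FPKM, lay above the highest of the 8 TRAMP prostates, at 38.1 FPKM.

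Perp (chromosome 10, 18845020 to 18857073), a membrane protein of desmosomes that takes part in p53-driven apoptosis and is also a target of the p53 relative p63, had the highest level of the 10 genes in wild type. It stood at 63.0 and 71.4 FPKM in TRAMP libraries and 157.3 and 183.3 FPKM in wild type libraries of 24 weeks. On the log2 scale it was lower (-1.33, SE 0.10, adjusted p = 5.94e-05). At 16 weeks Perp had 87.6 and 78.1 FPKM in TRAMP prostates and 172.7 FPKM in wild type (-1.05, adjusted p = 0.000811). Trp63, which encodes p63 and marks basal epithelium, was lower as well, and a link between the 2 genes was not tested. Trp63 averaged 0.585 FPKM in TRAMP and 4.88 FPKM in wild type prostates of 24 weeks (log2 fold change -1.90, SE 0.13, adjusted p = 3.16e-05).

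Phlda3 (chromosome 1, 135766119 to 135769136) encodes a small lipid-binding protein that restrains the kinase Akt. It had 7.89 and 9.19 FPKM in TRAMP libraries and 22.8 and 19.6 FPKM in wild type libraries of 24 weeks (-1.22, SE 0.26, adjusted p = 0.00639). At 16 weeks its values were 7.43 and 4.17 FPKM in TRAMP prostates against 21.4 FPKM in wild type (-1.77, SE 0.31, adjusted p = 0.00427). Phlda3 spanned 4.17 to 9.19 FPKM among the 8 TRAMP prostates, and none reached the wild type range. Eda2r (chromosome X, 97333840 to 97377216), a receptor of the tumor necrosis factor family for ectodysplasin A2, was the lowest of the 10 genes. Its level was 0.511 and 0.453 FPKM in TRAMP and 1.24 and 1.45 FPKM in wild type prostates of 24 weeks (-0.66, SE 0.16, adjusted p = 0.0113). At 16 weeks it was 0.522 and 0.445 FPKM in TRAMP and 1.25 FPKM in wild type prostates (-0.60, adjusted p = 0.0453). The Eda2r call was lost at 24 weeks without wild type replicate 1 (adjusted p = 0.065), and at 16 weeks it was made under 4 of 10 alternative settings.

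Bax (chromosome 7, 45461697 to 45466898) encodes the protein that permeabilizes the outer mitochondrial membrane in apoptosis. It had 61.3 and 62.0 FPKM in TRAMP libraries and 81.0 and 74.4 FPKM in wild type libraries of 24 weeks (-0.33, SE 0.06, adjusted p = 0.00371). At 16 weeks it stood at 55.2 and 50.6 FPKM in TRAMP prostates against 91.3 FPKM in wild type (-0.78, adjusted p = 0.000345). With the 24-week wild type libraries in place of the 16-week one, the difference was -0.55. Bax shares 192 exonic bases with the gene model Gm45808 on the same strand, so part of its level cannot be assigned with certainty.

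Zmat3 (chromosome 3, 32334792 to 32366014), an RNA-binding zinc finger protein, had 3.61 and 3.55 FPKM in TRAMP and 6.43 and 7.18 FPKM in wild type prostates of 24 weeks (-0.77, SE 0.12, adjusted p = 0.00136). At 16 weeks the Zmat3 values were 3.53 and 4.43 FPKM in TRAMP prostates against 6.52 FPKM in wild type (-0.60, adjusted p = 0.0146). Sesn2 (chromosome 4, 132492032 to 132510501), a stress protein that restrains mTORC1 signalling, differed less. It had 6.83 and 7.05 FPKM in TRAMP and 8.27 and 9.73 FPKM in wild type prostates of 24 weeks (-0.33, SE 0.11, adjusted p = 0.0395), and this call held under 6 of 12 alternative settings. The call was lost without TRAMP replicate 0, without TRAMP replicate 2 or without wild type replicate 1, and the adjusted p reached 0.205. At 16 weeks Sesn2 did not pass the test (-0.20, adjusted p = 0.278). Trp53inp1 (chromosome 4, 11156431 to 11174379), which promotes autophagy and p53-dependent cell death, had 10.3 and 7.29 FPKM in TRAMP and 10.7 and 8.87 FPKM in wild type prostates of 24 weeks. These groups overlapped, and the test was not passed at 24 weeks (-0.15, adjusted p = 0.429) or at 16 weeks (-0.17, adjusted p = 0.489).

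At 16 weeks 7 of the 10 genes were called, 1 higher and 6 lower, against 33.6% of all tested genes (18.1% higher, 15.4% lower). Of all genes called at this age 54.1% were higher, and 70.3% were after the rescaling, which moved the median of all genes to 0.12. The 16-week comparison rests on the wild type library with seminal vesicle transcripts. With the 24-week wild type libraries instead, 7 genes were called as well, with Ccng1 at -0.84, Perp at -1.03, Phlda3 at -1.75, Zmat3 at -0.65 and Trp53 at 0.80. Over the mean of both ages 8 genes were called, Trp53 higher (background 26.8%) and the 7 targets lower (background 25.9%), with Sesn2 at -0.26 (adjusted p = 0.032). This Sesn2 call held under 8 of 15 alternative settings (adjusted p up to 0.146), and it was lost without TRAMP replicate 0 or 2 of 24 weeks, TRAMP replicate 0 of 16 weeks or wild type replicate 1 of 24 weeks. None of the 10 genes was called for a difference of the TRAMP effect between 24 and 16 weeks, against 0.366% of tested genes in limma (0.329% for a more positive and 0.0374% for a more negative effect at 24 weeks). Bax came nearest with a difference of 0.45 (adjusted p = 0.132), and Mdm2 followed at -0.35 (adjusted p = 0.296). Over the libraries, the 8 TRAMP prostates and the 3 wild type prostates did not overlap for 8 of the 10 genes (80%), against 44.2% of tested genes. Of these, 7 genes were lower in every TRAMP prostate than in any wild type one (background 21.3%), and Trp53 was higher (background 23%).

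**Figure D2:**
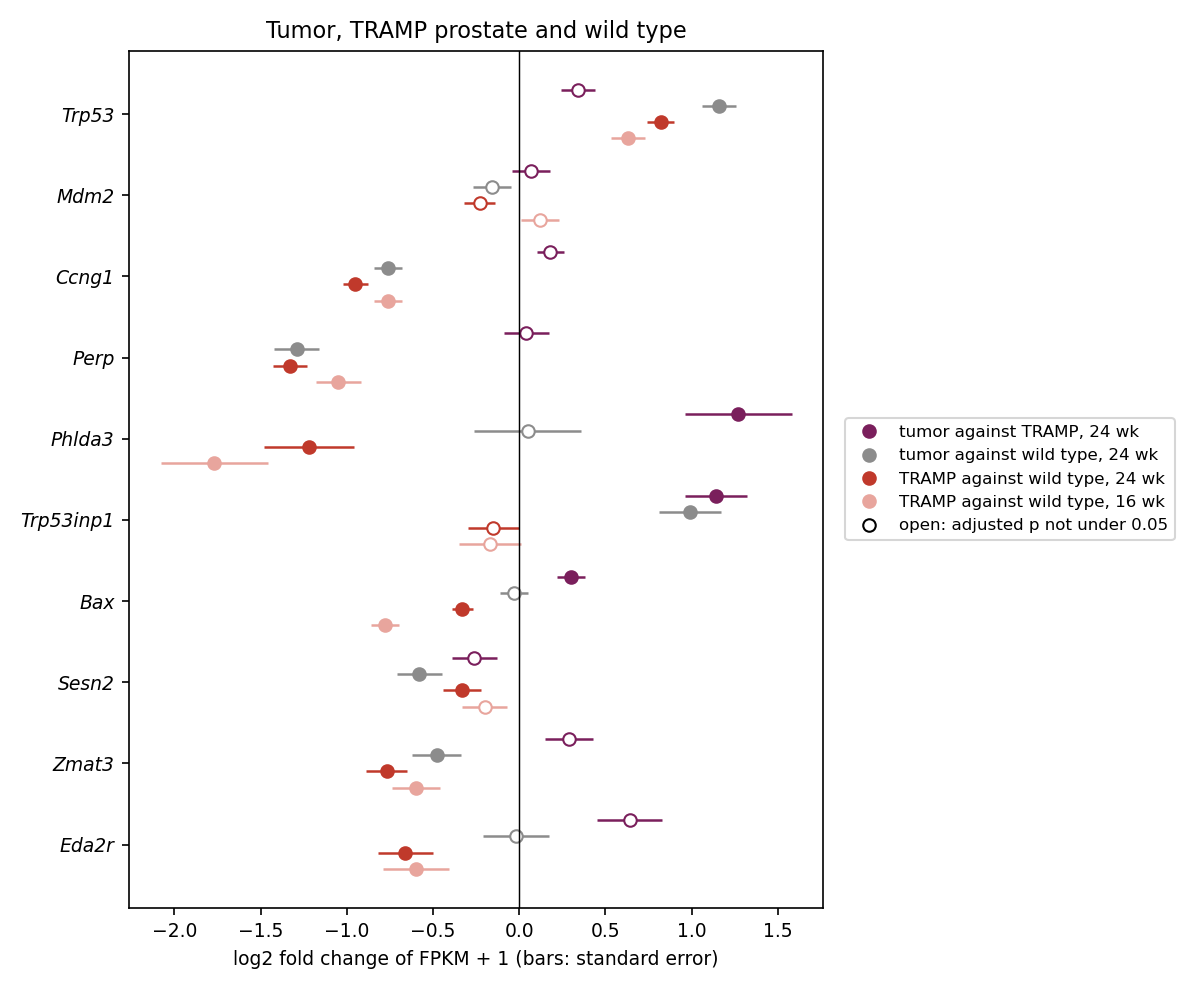
Log2 fold change of FPKM + 1 of the 10 genes in 4 comparisons, with bars for the standard error and open points where the adjusted p was not under 0.05. In TRAMP against wild type at 24 weeks, Trp53 lies at 0.82 and Perp at -1.33, and in the tumor against TRAMP prostate Trp53inp1 lies at 1.14 and Phlda3 at 1.27.

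Markers of other cells moved in the same comparison. The summed level of 8 basal epithelial markers was 55.7 to 87.8 FPKM in TRAMP prostates and 140.2 to 167.7 FPKM in wild type, with 6 of 8 called lower and 1 higher at 24 weeks. The basal keratin Krt5 spanned 4.67 to 10.8 FPKM in TRAMP prostates and 36.9 to 42.5 FPKM in wild type. Smooth muscle markers summed to 280.5 to 638.8 FPKM in TRAMP prostates against 730.7 to 868.1 FPKM in wild type, with 5 of 7 called lower at 24 weeks. The leukocyte markers summed to 68.7 to 224.7 FPKM in TRAMP prostates against 37.3 to 59.3 FPKM in wild type. Of these 8 markers, 6 were called higher at 24 weeks. Among all tested genes 23% were called higher and 22% lower at that age. At 16 weeks 0 of 8 leukocyte markers were called, while 6 of 8 basal and 7 of 7 smooth muscle markers were lower (background 15.4%). The sums cover both ages and diets. Luminal markers summed to 2546.3 to 2906.5 FPKM in TRAMP prostates and 2596.8 to 3094.4 FPKM in wild type. At 24 weeks 4 of 8 luminal markers were called lower and 1 higher. Secretory genes of the prostate (6 markers) summed to 3198.4 to 7497.9 FPKM in TRAMP prostates and 23482.3 to 28116.1 FPKM in wild type. Of these 6, 5 were called lower at 24 weeks (background 22%) and 4 at 16 weeks (background 15.4%). In these bulk libraries, fewer cells of a type and less RNA per cell cannot be told apart, and the part of these cells in the levels of the p53 targets was not tested.

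Other p53 targets were called in both directions. Of 41 further targets listed for arrest, apoptosis, metabolism and DNA repair, 39 were tested, and 16 were higher and 10 lower in TRAMP prostates at 24 weeks (background 23% and 22%). Their median log2 fold change was 0.06, beside -0.49 for the 10 genes. At 16 weeks 13 were higher and 8 lower (background 18.1% and 15.4%), with a median of 0.05. Among the 10 apoptosis targets tested, 6 were higher and 2 lower at 24 weeks. Fas, a death receptor, averaged 19.1 FPKM in TRAMP and 8.40 FPKM in wild type prostates of 24 weeks (1.09, adjusted p = 0.00116). It was not called at 16 weeks (0.27). Siva1, a partner of death receptors, averaged 49.6 FPKM in TRAMP and 17.6 FPKM in wild type (1.44, adjusted p = 6.59e-05). Apaf1, the core of the apoptosome, was higher by 0.76 and Pidd1, a caspase-activating scaffold, by 0.97. Bbc3, which encodes PUMA, averaged 4.58 FPKM in TRAMP and 4.34 FPKM in wild type and was not called (adjusted p = 0.684).

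Of 11 arrest targets 3 were higher and 3 lower at 24 weeks, close to the 23% higher and 22% lower of all tested genes. Cdkn1a encodes the Cdk inhibitor p21, and it averaged 8.09 FPKM in TRAMP and 5.81 FPKM in wild type prostates of 24 weeks (0.42, adjusted p = 0.285). At 16 weeks Cdkn1a averaged 4.86 FPKM in TRAMP prostates and stood at 6.59 FPKM in wild type (-0.45, adjusted p = 0.374). At 24 weeks Gtse1, a G2 and S phase protein that binds p53, was higher by 1.56 and Sfn, the 14-3-3 sigma gene, by 1.14. Rprm, a G2 arrest gene, was lower (-1.11). Sfn was not called at 16 weeks (-0.04). Of 10 metabolic and antioxidant targets 3 were higher and 4 lower, with Dram1, an autophagy gene, at 1.27 and Dcxr, a carbonyl reductase, at -0.94. The 8 DNA repair targets had 4 higher and 1 lower, with the damage sensor Ddb2 at 1.01 and the ribonucleotide reductase subunit Rrm2b at -0.65. Rrm2b was not called at 16 weeks (-0.16). Gtse1 is also known as a gene of dividing cells. All 12 cell cycle genes listed were higher in TRAMP prostates (median 2.79), and their part in these levels was not tested.

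Regulators of p53 were measured beside it. Of 17 tested, 8 were called in TRAMP prostates at 24 weeks, close to the 45% of all tested genes, with 6 higher and 2 lower. Cdkn2a, which encodes the Mdm2 inhibitor p19Arf and the Cdk inhibitor p16Ink4a, averaged 127.8 FPKM in TRAMP and 0.480 FPKM in wild type prostates (6.44, adjusted p = 4.95e-06). Chek1, a checkpoint kinase, averaged 7.27 FPKM in TRAMP and 0.482 FPKM in wild type (2.47). Pml, a nuclear body protein that acts on p53, was higher by 1.04, and Mdm4, the relative of Mdm2 that inhibits p53, by 0.37 (adjusted p = 0.0282). The Mdm4 call held under 6 of 12 alternative settings (adjusted p up to 0.155), and Mdm4 was not called at 16 weeks (adjusted p = 0.0503). Rchy1, which encodes the p53 ubiquitin ligase Pirh2, was lower (-0.71), averaging 40.2 FPKM in TRAMP and 66.5 FPKM in wild type. Gene-level FPKM does not separate the 2 products of Cdkn2a.

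The tumor was set against TRAMP prostates of the same age and diet to ask whether the p53 genes differ further in a tumor. It is 1 library and was assumed to vary like the replicated groups. Of the 10 genes 3 were called, all higher, against 11.8% of all tested genes (5.59% higher, 6.17% lower). Trp53inp1 stood at 20.4 FPKM in the tumor against 10.3 and 7.29 FPKM in TRAMP prostates (log2 fold change 1.14, SE 0.18, adjusted p = 0.00943). Its value in the tumor was the highest of the 12 libraries, and 10 of 11 alternative settings kept the call. Phlda3 stood at 22.0 FPKM in the tumor against 7.89 and 9.19 FPKM in TRAMP prostates (1.27, SE 0.31, adjusted p = 0.0386). Bax stood at 75.9 FPKM in the tumor against 61.3 and 62.0 FPKM in TRAMP prostates (0.30, SE 0.08, adjusted p = 0.0428). The Phlda3 and Bax calls were lost without TRAMP replicate 0 or without TRAMP replicate 2, leaving 1 called gene each time, and no gene was called when only the 3 libraries compared were fitted. With the 24-week TRAMP prostates of both diets as the comparison, 3 genes were called.

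The other 7 genes were not called in the tumor against TRAMP prostates. Trp53 stood at 46.2 FPKM in the tumor, above the 36.1 and 36.4 FPKM of TRAMP prostates (0.34, adjusted p = 0.0718). Eda2r stood at 1.32 FPKM in the tumor against 0.511 and 0.453 FPKM in TRAMP prostates (0.64, adjusted p = 0.0711). Ccng1 and Zmat3, at 39.4 and 4.61 FPKM in the tumor, lay above all TRAMP prostates and under all wild type libraries (0.18 and 0.29, adjusted p = 0.199 and 0.224). Perp at 69.0 FPKM and Mdm2 at 20.3 FPKM in the tumor lay within the range of TRAMP prostates. Sesn2 at 5.65 FPKM was under all other 11 libraries (-0.26, adjusted p = 0.25). Over libraries, the tumor lay above all 8 TRAMP prostates for 7 of the 10 genes (background 25.4%) and below all of them for 1 (background 30.1%).

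Against wild type prostates of 24 weeks, 6 of the 10 genes were called in the tumor, beside 52.2% of all tested genes, with 2 higher (background 26.4%) and 4 lower (background 25.8%). This comparison shares its libraries with the other comparisons and adds the tumor's place relative to wild type. Trp53 was higher by 1.16 (adjusted p = 8.6e-05) and Trp53inp1 by 0.99 (adjusted p = 0.00259). Perp (-1.29), Ccng1 (-0.76), Sesn2 (-0.58) and Zmat3 (-0.48) were lower. With only the libraries compared, the calls of Sesn2 (adjusted p = 0.0553) and Zmat3 (adjusted p = 0.0724) were lost, and without wild type replicate 1 that of Zmat3 (adjusted p = 0.0907). Phlda3, Bax and Eda2r in the tumor lay inside the range of the 3 wild type libraries, with differences of 0.05, -0.03 and -0.02, which did not pass the test. Of the 7 targets called lower in TRAMP prostates of 24 weeks, Ccng1, Perp, Zmat3 and Sesn2 thus lay under the wild type range in the tumor and the other 3 within it. The differences of Bax and Eda2r changed sign under other scalings, at 0.05 and 0.03 when rescaled without the 50 most abundant genes.

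Other p53 targets were also higher in the tumor than in TRAMP prostates of 24 weeks, with 9 of 39 called higher and 3 lower (background 5.59% and 6.17%) and a median log2 fold change of 0.20. Cdkn1a stood at 25.6 FPKM in the tumor against an average of 8.09 FPKM in TRAMP prostates (1.55, SE 0.37, adjusted p = 0.0346). Its range over the 8 TRAMP prostates was 2.97 to 8.52 FPKM and that of wild type 5.09 to 6.59 FPKM. Sfn stood at 49.1 FPKM in the tumor against 17.8 FPKM in TRAMP prostates (1.42, adjusted p = 0.00314). Psrc1 (1.13), a spindle protein gene, Plk2 (0.99), a kinase gene, and Gls2 (0.89), a glutaminase gene, were higher too, as were Fas (0.79), Apaf1 (0.69), Tnfrsf10b (0.51), a death receptor gene, and Bcl2l11 (0.47), which encodes Bim. Dcxr (-0.91), Rrm2b (-0.50) and Tob1 (-0.32), an antiproliferative gene, were lower. These counts depended on the TRAMP libraries: they were 4 higher and 1 lower without TRAMP replicate 0, 4 higher and 2 lower without TRAMP replicate 2, and 0 in both directions with only the libraries compared. Single calls varied as well: that of Tnfrsf10b held under 3 of 10 alternative settings and those of Cdkn1a, Plk2 and Tob1 under 6 of 11. The calls of Sfn, Apaf1 and Dcxr held under 10 of 11. No p53 regulator of 17 was called at an adjusted p under 0.05 in limma, against 11.8% of all tested genes. None of the 17 had an unadjusted p under 0.05, against 3809 of the 13375 tested genes.

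**Figure D3:**
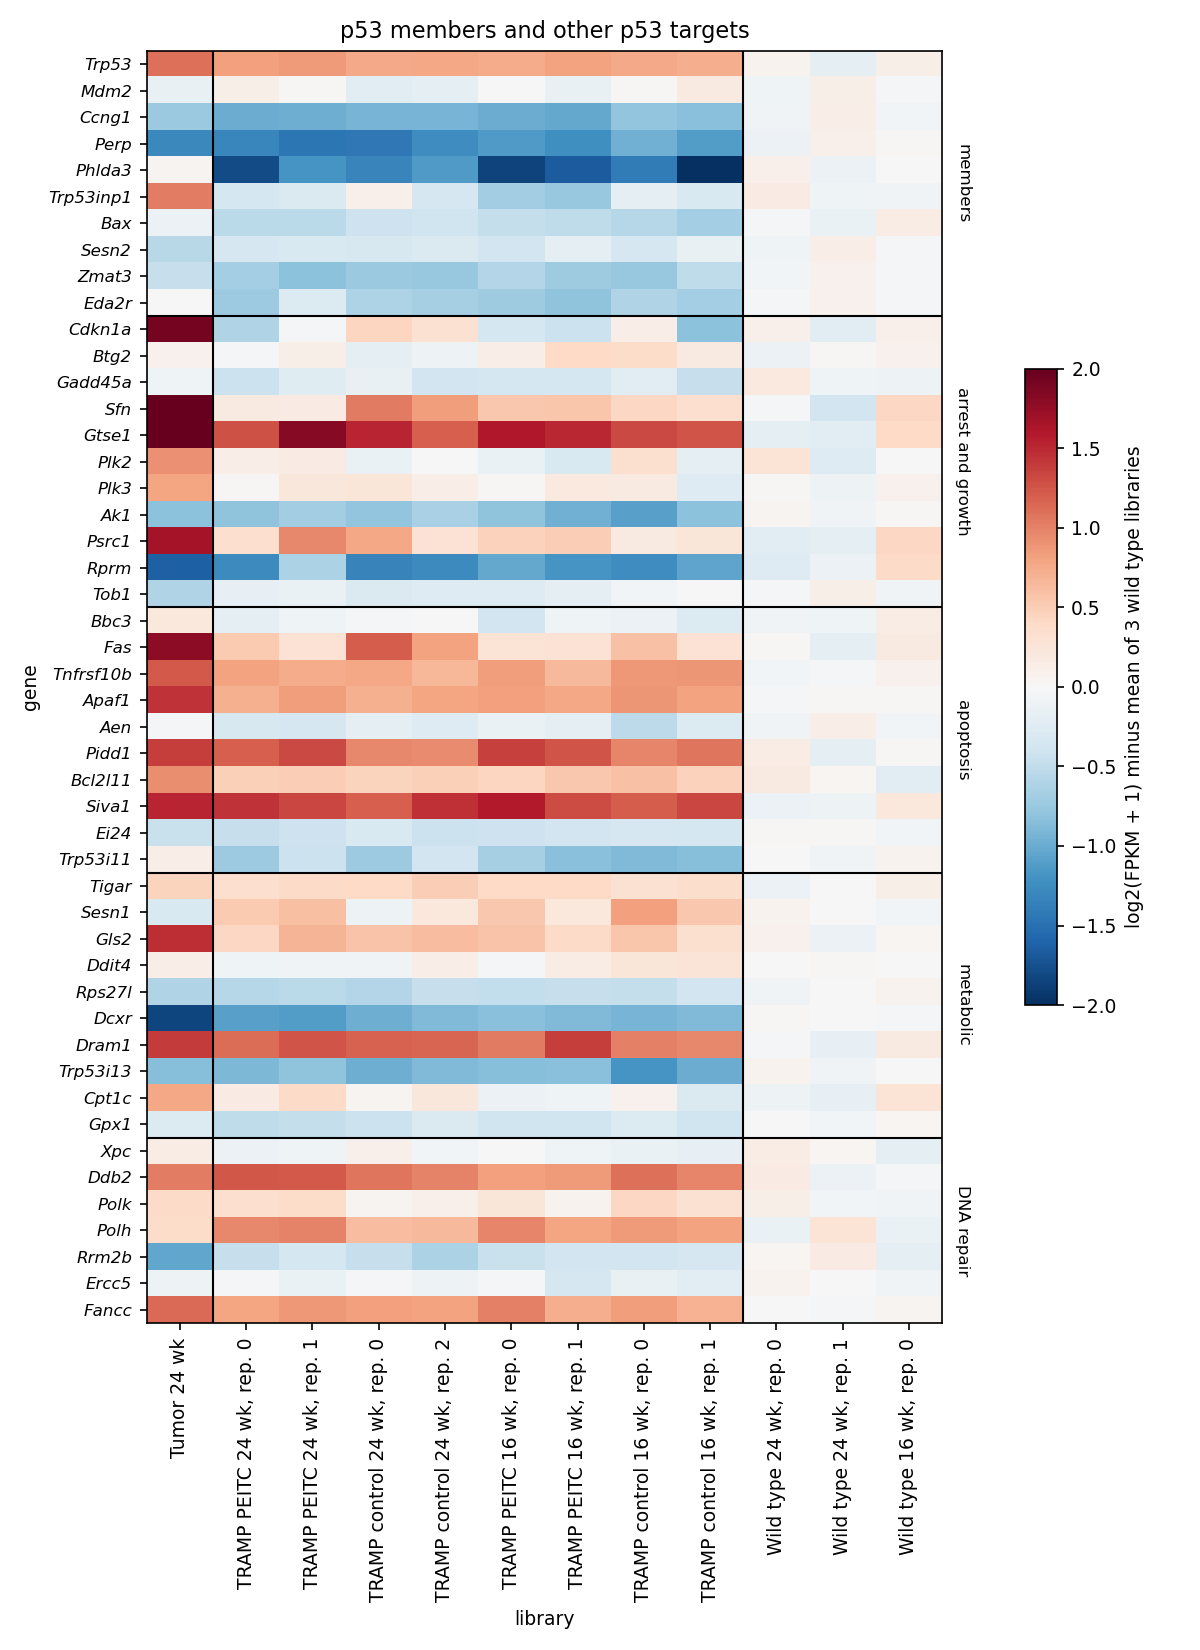
Log2(FPKM + 1) of the 10 genes and other p53 targets in each of the 12 libraries, minus the mean of the 3 wild type libraries, with colours that saturate at -2 and 2. Ccng1, Perp and Zmat3 are low in all TRAMP prostates and in the tumor, while Trp53inp1, Cdkn1a and Sfn are highest in the tumor.

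The tumor's cell markers also differed. The basal list summed to 120.9 FPKM in the tumor against 55.7 to 87.8 FPKM in TRAMP prostates, and 52.8 FPKM of it was Krt17. Only Krt17 of the basal list was called, and it was higher (background 5.59%). Krt14 (5.37 FPKM) and Itgb4 (32.6 FPKM) also lay above all TRAMP prostates but were not called. The other basal markers, Krt5 (4.76 FPKM), Trp63 (0.451 FPKM), Krt15, Dst and Col17a1, lay within the range of TRAMP prostates. Luminal markers summed to 3747.9 FPKM in the tumor against 2546.3 to 2906.5 FPKM in TRAMP prostates, with 1 of 8 called higher (background 5.59%). Prostate secretory markers summed to 2577.2 FPKM in the tumor against 3198.4 to 7497.9 FPKM in TRAMP prostates. Of these, Sbp and Spink1 were called lower (background 6.17%) and the others were not called. Endothelial markers summed to 17.6 FPKM in the tumor against 3.38 to 9.12 FPKM in TRAMP prostates, with 1 of 5 called higher (background 5.59%). Leukocyte markers summed to 170.1 FPKM in the tumor against 68.7 to 224.7 FPKM in TRAMP prostates, with 0 of 8 called in limma. At an unadjusted p under 0.05 there were 0 of the 8, against 3809 of the 13375 tested genes. The part of these cells in the tumor's levels was not tested.

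PEITC diet was compared with control diet in TRAMP mice to ask whether the compound changes these genes. None of the 10 genes was called at 24 weeks (0% of the 13375 tested genes called, 1267 at an unadjusted p under 0.05) or at 16 weeks (0.00748% called, 1347 at an unadjusted p under 0.05) in limma. At an unadjusted p under 0.05, 1 of the 10 genes stood out at 24 weeks and 2 at 16 weeks. The first was Mdm2, with 24.4 and 23.0 FPKM on PEITC and 19.0 and 19.5 FPKM on control diet at 24 weeks (log2 fold change 0.28, SE 0.09, adjusted p = 0.474). At 16 weeks Mdm2 had 22.3 and 20.2 FPKM on PEITC and 22.8 and 25.5 FPKM on control diet (-0.18). Its difference of PEITC effects between the ages was 0.46, with an adjusted p of 0.306. Trp53inp1 had 5.46 and 5.21 FPKM on PEITC and 8.13 and 7.49 FPKM on control diet at 16 weeks (-0.48, SE 0.15, adjusted p = 0.438). Ccng1 had 32.9 and 32.3 FPKM on PEITC and 38.1 and 36.8 FPKM on control diet at 16 weeks (-0.19, adjusted p = 0.438). The libraries of the 2 diets did not overlap for 4 of the 10 genes at 24 weeks, against 44.6% of all tested genes, and for 6 of the 10 at 16 weeks, against 42.2%. Eda2r had its highest TRAMP prostate value, 0.906 FPKM, in replicate 1 of PEITC at 24 weeks, the library with neuroendocrine transcripts, against 0.394 FPKM in replicate 0. Without replicate 1, none of the 10 genes was called at 24 weeks either (limma). Averaged over both ages, PEITC called none of the 10 genes and 0% of tested genes, with 889 at an unadjusted p under 0.05. Trp53 stood at 37.7 and 38.8 FPKM on PEITC and 36.1 and 36.4 FPKM on control diet at 24 weeks (0.08). None of the 39 other p53 targets was called at either age in limma, and 1 was called lower at 24 weeks when TRAMP control diet replicate 2 was left out.

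**Figure D4:**
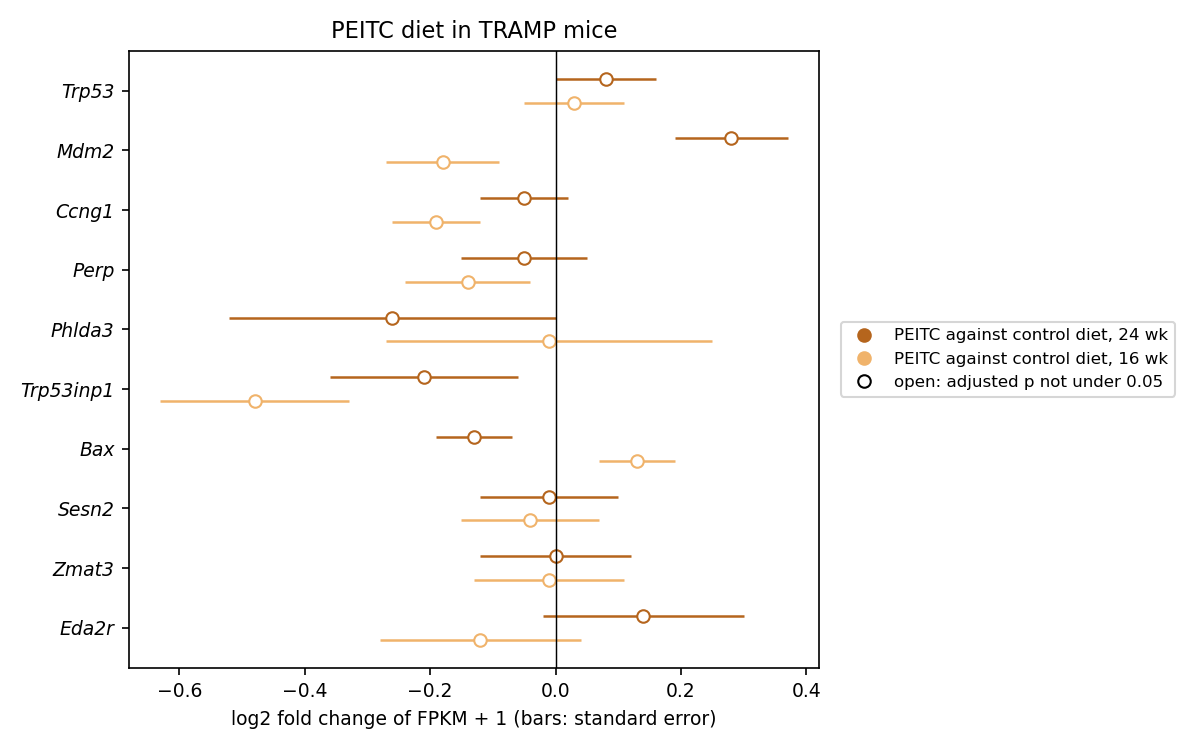
Log2 fold change of FPKM + 1 of the 10 genes in TRAMP mice on PEITC against those on control diet at 24 and 16 weeks, with bars for the standard error. All points are open because none had an adjusted p under 0.05, and the most distant are Trp53inp1 at -0.48 at 16 weeks and Mdm2 at 0.28 at 24 weeks.

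Age was compared in TRAMP mice on control diet, and none of the 10 genes was called between 24 and 16 weeks, against 0.00748% of tested genes in limma. At an unadjusted p under 0.05 there were 3 of the 10 genes, against 2261 of the 13375 tested. Mdm2 had 19.0 and 19.5 FPKM at 24 weeks and 22.8 and 25.5 FPKM at 16 weeks (-0.31, adjusted p = 0.192). Perp had 63.0 and 71.4 FPKM at 24 weeks and 87.6 and 78.1 FPKM at 16 weeks (-0.30, adjusted p = 0.229). Bax had 61.3 and 62.0 FPKM at 24 weeks and 55.2 and 50.6 FPKM at 16 weeks (0.22, adjusted p = 0.189). The libraries of the 2 ages did not overlap for 5 of the 10 genes, these 3 with Phlda3 and Ccng1, which is close to the 46.3% of all tested genes.

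The 10 genes fell into patterns over the 12 libraries, given here as Pearson correlations of log2(FPKM + 1) across libraries that share groups. Ccng1 and Perp ran together (r = 0.97), as did Ccng1 and Zmat3 (0.95), and Trp53 ran opposite to Perp (-0.95) and Ccng1 (-0.92). Phlda3 ran with Bax (0.93) and with Eda2r (0.93). Mdm2 was related to none of the others beyond 0.36 in size. The genes most like each member were sought among tested genes, leaving out names of Gm with a number and names ending in Rik. They were Terf1 (0.993) and Donson (0.988) for Trp53, Car12 (0.984) for Ccng1, and Pebp1 (0.991) and Ufc1 (0.983) for Perp. Spred1 was most like both Phlda3 (0.982) and Eda2r (0.94), followed by Nosip (0.981) and Nefl (0.934). Micall2 (0.977) and Wfdc2 (0.968) were most like Bax, Aacs (0.983) and Bbx (0.977) most like Zmat3, and Ostm1 (0.97) and Cpeb3 (0.969) most like Sesn2. Trp53inp1 had Malsu1 (0.947) and Gna14 (0.937), and Mdm2 had lower values, with Zfp958 and Pank3 both at 0.873.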

How the data were processed

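RNA of 12 libraries in 7 groups was compared. The authors deposited FPKM values for 24421 genes per library, on mm10 per the labels; the tools in the submitters' processing notes are HISAT2, Picard, featureCounts and DESeq2, with no version or role. For the FPKM, the annotation and library totals are unstated in these sources. Each library's values summed to between 395678 and 467650, so only relative levels were read from them, and depth in reads is unknown.

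The analysis used log2(FPKM + 1). The 13375 genes averaging 0.5 FPKM or more were fitted in 1 model with a mean per group (limma 3.58.1, R 4.3.3, variance trend, 5 residual degrees of freedom, two-sided tests, Benjamini-Hochberg adjustment over all tested genes). The fit was tested on simulated data. The 2 groups of 1 library were assumed to vary like the other 5. There were 10 comparisons. Positions came from GENCODE M21 (GRCm38). The members, gene lists and tests were chosen with earlier results of these data known. Named genes were the 10 members, for each pathway list the called genes of largest change, 4 at most, Cdkn1a, Cdkn2a, Mdm4, Trp63, Bbc3 and Mki67, and the 2 genes most correlated with each member; some of them are not reported here. Of the listed genes, Pmaip1, Sco2 and Trp73 fell under the filter and Cop1 was not matched. Alternatives changed the pseudocount (0.1, 5), the filter (none, 2 FPKM), the scaling, the variance model and the libraries.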

Additional observations from a re-analysis of the deposited data

How the results depend on the processing

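The count of called members changed by over 1.5 times in the tumor against TRAMP prostates, where 3 were called. It was 1 with no filter on low values, 1 with no variance trend, 0 with only the libraries compared, and 1 in every case when a TRAMP library was left out. Leaving out libraries gave 6 to 9 called members for TRAMP against wild type at 24 weeks (8 with all), 6 at 16 weeks (7 with all) and 7 to 8 for the mean of both ages (8 with all). It gave 5 to 6 for the tumor against wild type (6 with all) and 0 for PEITC, for age and for the difference of TRAMP effects. The 16-week wild type library and the tumor could not be left out.

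Some fold changes that were not called changed sign. For TRAMP against wild type at 24 weeks, Trp53inp1 ranged from -0.38 to 0.07 when libraries were left out, the highest without TRAMP replicate 2. Rescaling without the 50 most abundant genes gave Mdm2 0.06 for the mean of both ages, and Bax 0.05 and Eda2r 0.03 for the tumor against wild type. Quantile normalization gave Bax 0.08 there. Also there, leaving out a wild type library gave Bax -0.09 to 0.03, Eda2r -0.08 to 0.05 and Phlda3 -0.05 to 0.16. For the tumor against TRAMP prostates, Mdm2 was -0.07 with all 24-week TRAMP prostates, a comparison chosen after seeing the data, and Perp ranged from -0.05 to 0.13 without a TRAMP library. For PEITC at 24 weeks, leaving out a library gave Phlda3 -0.56 to 0.04 and Trp53inp1 -0.43 to 0.01. These counts take all members in the comparisons with a called member, and in the others only those with a fold change of at least 0.2 in size: 704 values kept their direction and call, 36 lost the call, 3 gained it and 12 reversed. Smaller fold changes in those others were not counted, and some of them changed sign too. The cause was not tested.

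Same-numbered PEITC and control libraries of 16 weeks deviated in opposite directions (r = -0.31 across 13375 genes), so their numbers were not read as pairs. A replicate block called 0 members, as did a block with the numbers crossed, chosen after seeing the data. No paired analysis was possible for the other comparisons because their groups share fewer than 2 replicate numbers or hold 1 library.

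Groups hold 1 or 2 libraries and no read counts are known, so differences of low genes such as Eda2r are known only roughly, and a missed threshold does not show equal levels.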
